A study of Mus musculus with 12 samples.

Results

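Sst, Hhex and Rbp4, 3 genes that mark the somatostatin-producing delta cells of the pancreatic islet, were followed in 12 tumors of LSL-MYCN;hGFAP-Cre mice. Every probe set that the array's annotation gives to these symbols was taken, which was 1 for each gene, so 3 of the 45037 tested probe sets and 3 of 18193 represented genes are described. The tumors were 9 pancreatic tumors (numbers 1 to 5 and 9 to 12) and 3 pituitary tumors (numbers 6, 7 and 8), with 1 Affymetrix mouse array per tumor. The tissue label of tumors 6, 7 and 8 is brain, but the study describes the tumors it found in the head as pituitary. All tumors carried the same alleles, a MYCN transgene that stays silent until Cre removes a loxP-flanked stop, and Cre under the human GFAP promoter, which is active in GFAP-positive cells. The study describes its double transgenic mice as of mixed genetic background. No treatment is given for any tumor, and the age of the mouse behind each tumor is not known here. The values are log2 signals as deposited, so a difference of 1 is a doubling of signal. Each probe set binds with its own strength, so the levels of different genes were not ranked, and the median of an array serves only as a mark for dim signals. Some mice of the study had tumors at both sites. It is not known here which tumors share a mouse, so each tumor was counted as independent.

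Somatostatin is a short peptide hormone that delta cells release onto neighbouring islet cells, where it restrains the release of insulin and glucagon. It is cut from a precursor encoded by Sst, and it is also made by inhibitory neurons of the cortex, by neurons of the hypothalamus and by endocrine cells of the gut. Hhex is a homeobox transcription factor that is needed in the mouse for the development and upkeep of delta cells, and is also made in liver, endothelium and B cells. Rbp4 encodes the retinol-binding protein of blood plasma, which is secreted chiefly by hepatocytes and also by adipocytes, and its transcript is abundant in delta cells.

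The stretches before the transcription starts are shown because all 3 genes were higher in tumors of the same site. They are the 250 bases before a start, 5′ to 3′ on the strand of the gene, from RefSeq on GRCm38.p6, with motif matches in capitals. The Sst stretch is chr16:23890845-23891094 (minus strand), the Hhex stretch is chr19:37434591-37434840 (plus strand), and the Rbp4 stretch, which belongs to the downstream start of 2 listed, is chr19:38124812-38125061 (minus strand).
Sst: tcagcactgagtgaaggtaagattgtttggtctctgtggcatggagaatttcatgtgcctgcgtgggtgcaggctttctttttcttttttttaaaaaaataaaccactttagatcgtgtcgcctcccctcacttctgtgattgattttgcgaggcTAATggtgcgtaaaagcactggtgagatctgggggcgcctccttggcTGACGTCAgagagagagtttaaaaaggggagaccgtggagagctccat
Hhex: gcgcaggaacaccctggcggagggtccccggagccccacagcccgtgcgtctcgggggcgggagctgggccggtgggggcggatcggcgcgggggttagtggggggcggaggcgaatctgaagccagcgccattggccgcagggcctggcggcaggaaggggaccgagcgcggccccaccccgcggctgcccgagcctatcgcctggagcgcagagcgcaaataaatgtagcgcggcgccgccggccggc
Rbp4: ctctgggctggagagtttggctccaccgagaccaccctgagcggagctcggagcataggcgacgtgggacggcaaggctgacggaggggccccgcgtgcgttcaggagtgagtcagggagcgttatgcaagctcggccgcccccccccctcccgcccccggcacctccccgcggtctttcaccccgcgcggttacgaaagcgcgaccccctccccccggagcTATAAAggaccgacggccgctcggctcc
The capitals in Sst mark TAAT, the core of many homeodomain binding sites, at 95 to 92 bases before the start, and TGACGTCA, the palindromic cAMP response element, at 48 to 41 bases before it. In Rbp4 they mark TATAAA, the core element known as the TATA box, at 28 to 23 bases before the start. Both strands were searched for these motifs and for the E-box, the letters CACGTG that MYC proteins bind, and no matches overlapped. Of 32851 promoter stretches of this length, 1.55% held the cAMP response element, 54.9% the homeodomain core, 12.4% the TATA box and 6.02% the E-box. No match to these letters was found in the Hhex stretch, 76% of whose bases are G or C, against 47.2% in Sst and 70.8% in Rbp4. The upstream start of Rbp4 held 1 match, ATTA at 227 to 224 bases before the start, in a stretch with 40.8% G or C. A match to these letters is a description and does not show that a factor binds.

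All 3 genes were higher in the pancreatic tumors, and for none of them did the groups overlap. Of all probe sets 1.18% were higher in pancreatic tumors at an adjusted p under 0.05, and 3.86% were higher with no overlap between the groups. The exact permutation test over all 220 splits of the tumors gave p = 0.00455 for each gene (two-sided), the smallest that 9 against 3 tumors can give. In bulk tissue, a larger number of cells that make a transcript and more transcript per cell cannot be told apart.

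Sst had a log2 signal of 15.07, 13.65, 14.90, 15.04 and 14.94 in pancreatic tumors 1 to 5 and of 14.87, 15.10, 15.08 and 15.06 in pancreatic tumors 9 to 12, against 11.93, 10.51 and 11.91 in pituitary tumors 6, 7 and 8. The pancreatic tumors other than tumor 2 lay within a range of 0.23, tumor 2 lay below them, and the lowest pancreatic tumor was still 1.73 above the highest pituitary tumor. The pancreatic tumors averaged 14.86 ± 0.46 (SD, n = 9) and the pituitary tumors 11.45 ± 0.81 (SD, n = 3). Its difference was 3.41 (SE, the standard error, 0.34, limma adjusted p = 0.000118), a 10.6-fold higher signal in pancreatic tumors. In 8 of the 9 pancreatic tumors the Sst signal lay less than 0.2 below the highest signal of any probe set on its array. The largest of these gaps was 0.12, and in 6 of these tumors Sst was itself the highest signal. Whether this probe set was saturated there was not tested. No pituitary tumor had a dim Sst signal, as the medians of these arrays were 5.53 to 5.61.

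Of the 3 genes, Hhex had the largest difference. Its log2 signal was 13.10, 10.99, 12.37, 12.21 and 11.83 in pancreatic tumors 1 to 5 and 12.04, 12.55, 11.53 and 12.32 in pancreatic tumors 9 to 12, against 6.33, 4.88 and 5.14 in pituitary tumors 6, 7 and 8. Pancreatic tumor 1 was the highest and tumor 2 the lowest, and the gap between the groups was 4.66. The pancreatic tumors averaged 12.11 ± 0.61 (SD, n = 9) and the pituitary tumors 5.45 ± 0.77 (SD, n = 3), which differ by 6.66 (SE 0.40, limma adjusted p = 1.64e-06). Of the 18193 genes, 2 (0.011%) passed the test and were higher in pancreatic tumors by at least as much as Hhex, which is itself 1 of them. Genes that were lower in pancreatic tumors are not in this count. In pituitary tumors 7 and 8 the Hhex signal was below the median of the array, so the fold depends on how such dim signals are treated. With values below the array median set to it, the difference was 6.28, which corresponds to 78.0-fold in place of 101-fold.

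Rbp4 had a log2 signal of 13.95, 13.82, 13.00, 13.84 and 13.19 in pancreatic tumors 1 to 5 and of 14.38, 13.41, 12.95 and 13.49 in pancreatic tumors 9 to 12, against 10.52, 10.61 and 9.79 in pituitary tumors 6, 7 and 8. Pancreatic tumor 9 was the highest and tumor 11 the lowest, and 2.35 lay between the groups. The pancreatic tumors averaged 13.56 ± 0.48 (SD, n = 9) and the pituitary tumors 10.31 ± 0.45 (SD, n = 3), which differ by 3.25 (SE 0.30, limma adjusted p = 5.80e-05), or 9.53-fold. Of the 18193 genes, 65 (0.357%), Rbp4 included, passed the test and were higher in pancreatic tumors by at least this much.

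**Figure D1:**
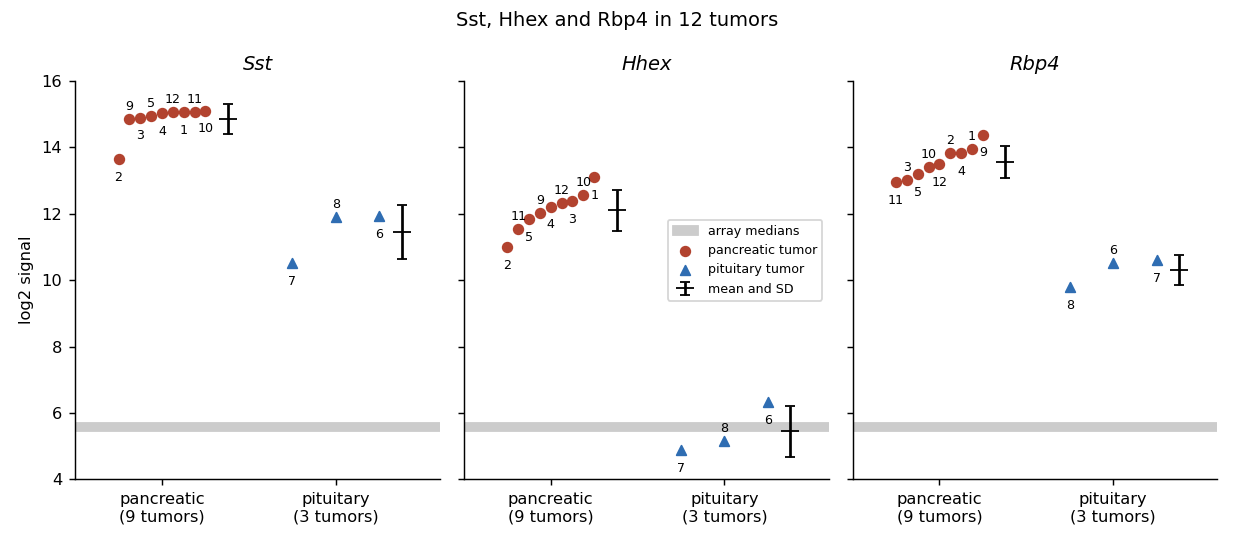
Log2 signal of Sst, Hhex and Rbp4 in each tumor, with tumor numbers beside the points, pancreatic tumors as circles on the left and pituitary tumors as triangles on the right of each panel. The cross and bar give the mean and SD, and the grey band gives the range of the array medians. Every pancreatic tumor lies above every pituitary tumor for each gene, by 1.73 for Sst, 4.66 for Hhex and 2.35 for Rbp4, and Hhex of pituitary tumors 7 and 8 falls below the band.

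Sst precursor is cut and stored by proteins shared with other peptide hormones, and none of 8 measured genes of this kind passed the test (of 9 listed), with a median difference of 0.24 against 0.03 over all genes. Among all genes 1.61% were higher and 4.5% lower in pancreatic tumors. Furin, a protease of the secretory pathway that cleaves prosomatostatin, averaged 8.34 ± 0.39 over the pancreatic tumors (SD, n = 9) and 7.53 ± 0.52 over the pituitary tumors (SD, n = 3) (difference 0.81, limma adjusted p = 0.116). Pcsk1, a prohormone convertase, differed by 0.19 and Cpe, the carboxypeptidase that trims cut peptides, by -0.34 (limma adjusted p = 0.924 and 0.785). Chga, the granule protein chromogranin A, was 9.58 in pancreatic tumor 2 and 11.78 to 13.95 in the other pancreatic tumors, against 10.76 to 12.27 in pituitary tumors. Pancreatic tumor 2 also had the lowest signal of its group in Sst and Hhex. Cort, which encodes the related peptide cortistatin and shares receptors with somatostatin, lay between 6.46 and 7.09 in pancreatic and between 6.03 and 6.52 in pituitary tumors (difference 0.30, limma adjusted p = 0.346).

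Of the 5 somatostatin receptors, which are G protein-coupled receptors that lower cAMP, 1 was higher in the pancreatic tumors and none was lower. Sstr3 had 5.08 in pancreatic tumor 2 and 8.48 to 9.74 in the other 8, against 5.32, 6.42 and 5.00 in pituitary tumors 6, 7 and 8, so tumor 2 lay among the pituitary tumors. Its difference of 2.95 (SE 0.77, limma adjusted p = 0.0498) was lost without any 1 of 11 of the 12 tumors, all but pancreatic tumor 2, with adjusted p between 0.0573 and 0.225. Its other probe set differed by 0.91 (limma adjusted p = 0.174). Sstr2, the receptor most used for imaging of neuroendocrine tumors, was 5.24 to 6.60 in pancreatic tumors, against 7.59, 6.87 and 4.91 in pituitary tumors 6, 7 and 8 (difference -0.53, limma adjusted p = 0.548). Sstr1 was above the array median in 1 of 9 pancreatic and 0 of 3 pituitary tumors, Sstr4 in 1 of 9 and 2 of 3, and Sstr5 in 4 of 9 and 1 of 3.

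Other genes for which delta cells are known mostly did not pass the test. Of 10 measured (12 listed), 1 was higher and none lower, with a median difference of 0.43 against 0.03 over all genes. Ghsr, the ghrelin receptor through which ghrelin makes delta cells release somatostatin, was 6.87, 3.79, 6.44, 6.79 and 6.82 in pancreatic tumors 1 to 5 and 7.23, 7.56, 7.60 and 8.20 in pancreatic tumors 9 to 12, against 3.61, 3.41 and 3.84 in pituitary tumors 6, 7 and 8. Tumor 2 was the only pancreatic tumor within the range of the pituitary tumors, and all pituitary values were below the array median. With values below the array median set to it, the difference was 1.42. As deposited, the difference was 3.19 (SE 0.69, limma adjusted p = 0.0221), with adjusted p = 0.102, 0.0600 and 0.0842 without pituitary tumor 6, 7 or 8. Ffar4, a receptor for long-chain fatty acids that is found on delta cells, had 5.03 in pancreatic tumor 2 and 7.08 to 9.94 in the other 8, against 5.55, 8.09 and 7.15 in the pituitary tumors (difference 1.38, limma adjusted p = 0.413). Fxyd6, a small regulator of the sodium pump, differed by 1.28 (limma adjusted p = 0.440) and was likewise lowest in pancreatic tumor 2, at 5.78. Cckbr went the other way, with 5.73 to 7.40 in pancreatic tumors, against 8.84, 6.71 and 6.23 in pituitary tumors 6, 7 and 8. Its difference was -0.82 (limma adjusted p = 0.398).

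Factors that act in the endocrine pancreas beside Hhex were partly higher. Of 11 measured (15 listed), 3 were higher and none lower, with a median difference of 1.44. Pdx1, which specifies the pancreas and is kept in beta and delta cells, was 6.61 in pancreatic tumor 2 and 8.01 to 10.91 in the other 8, against 3.75 to 3.97 in pituitary tumors. Its difference was 5.39 (SE 0.73, limma adjusted p = 0.0011), and 2.32 (adjusted p = 0.0164) with the other probe set. All 3 pituitary signals of Pdx1 were below the array median, and with such values set to it the difference was 3.67. Foxa2, a forkhead factor of the gut endoderm and the islet, lay at 9.52 to 10.78 in pancreatic tumors, against 5.34 to 6.06 in pituitary tumors (difference 4.55, limma adjusted p = 2.14e-06). Isl1, a LIM homeobox factor of islet cells, was 8.76 in pancreatic tumor 2 and 11.44 to 12.95 in the other 8, against 6.47, 9.38 and 5.71 in pituitary tumors 6, 7 and 8, and passed the test (difference 4.51, limma adjusted p = 0.00978). That call was lost without pituitary tumor 6 (4.16, limma adjusted p = 0.0723) or 8 (3.77, limma adjusted p = 0.0749). Pax6, which with Pdx1 is known to bind the Sst gene, lay close to the threshold (difference 3.23, limma adjusted p = 0.0523). None of its 5 probe sets passed in the fit of all tumors, and those other than the representing one differed by 0.31 to 2.79 (limma adjusted p = 0.0863 to 0.338). The representing one passed without pancreatic tumor 2, pancreatic tumor 5 or pituitary tumor 8, and in 6 of 9 other alternatives. Its adjusted p there was between 0.00153 and 0.0496. Under the remaining alternatives adjusted p was 0.0707 to 0.206. Without pancreatic tumor 2, 5 of the 11 factors were higher. Creb1, which binds the cAMP response element, had a difference of -0.93 (limma adjusted p = 0.305).

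Hhex acts in part by recruiting corepressors of the Groucho family. Of 8 measured partners, none was higher and 1 was lower, with a median difference of 0.25. Tle4, one of the Groucho corepressors, was 7.39 to 9.54 in pancreatic and 11.11, 11.36 and 10.14 in pituitary tumors (difference -2.37, SE 0.42, limma adjusted p = 0.00747). Without pituitary tumor 6 this call was lost (-2.25, adjusted p = 0.0543), and the other 2 probe sets of Tle4 did not pass the test. Tle5, the short Groucho family member, was 8.63 to 9.36 in 6 pancreatic tumors and 12.16 to 12.34 in tumors 10, 11 and 12, against 8.52 to 8.79 in pituitary tumors.

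**Figure D2:**
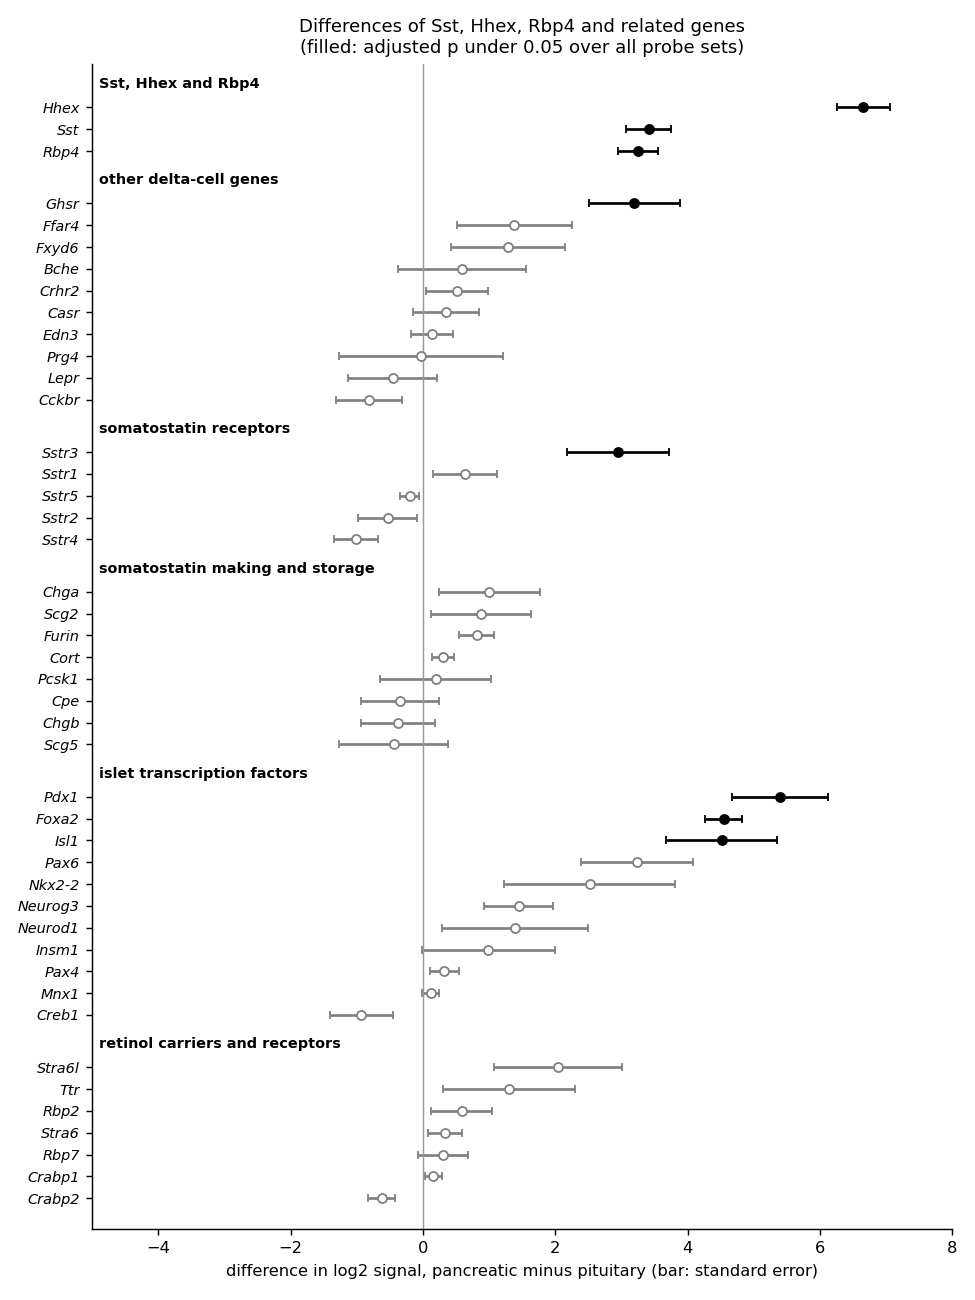
Difference in log2 signal, pancreatic minus pituitary tumors, on the horizontal axis for Sst, Hhex, Rbp4 and the measured genes of 5 related groups, with bars for the standard error and filled points for an adjusted p under 0.05. Hhex (6.66) lies farthest to the right, and of the other delta-cell genes and receptors Ghsr and Sstr3 are filled.

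Rbp4 carries retinol in plasma together with transthyretin and hands it to cell-surface receptors. None of 7 measured carriers and receptors of retinol (8 listed) passed the test, with a median difference of 0.33. Ttr, which encodes transthyretin, is made by liver, choroid plexus and islet cells. Its log2 signal was 12.90, 14.69, 14.62, 14.58 and 13.91 in pancreatic tumors 1 to 5 and 12.40, 13.22, 11.30 and 11.50 in pancreatic tumors 9 to 12, against 11.39, 9.72 and 14.69 in pituitary tumors 6, 7 and 8. Pituitary tumor 8 was thus as high as the highest pancreatic tumor, and none of the 4 probe sets passed the test (difference 1.30, limma adjusted p = 0.506 for the representing one). Rbp4 had its lowest signal of all 12 tumors in that same pituitary tumor 8. Stra6l, a cell-surface receptor for Rbp4 that is known from liver, was 9.95 in pancreatic tumor 2 and 4.46 to 7.41 in the others, against 3.68 to 4.09 in pituitary tumors (difference 2.05, limma adjusted p = 0.271).

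Among 15 measured genes that convert or sense retinoids inside cells (17 listed), none was higher and 3 were lower in pancreatic tumors, with a median difference of -0.06. Cyp26b1, which breaks down retinoic acid, lay at 5.57 to 5.95 in pancreatic tumors, against 6.55 to 7.13 in pituitary tumors (difference -1.01, limma adjusted p = 0.00155). Rarb, a retinoic acid receptor that is itself induced by retinoic acid, lay at 4.08 to 4.85 in pancreatic tumors, against 5.23 to 6.93 in pituitary tumors (difference -1.80, limma adjusted p = 0.00441). All 9 pancreatic signals of Rarb were below the array median, and with such values set to it the difference was -0.80. Rxrg, a retinoid X receptor, differed by -1.67 (limma adjusted p = 0.0454). That call was lost after quantile normalization (-1.50, limma adjusted p = 0.0909) and when any 1 of 9 tumors was left out, among them pituitary tumor 7 (-1.15, adjusted p = 0.171) and pituitary tumor 8 (-1.79, adjusted p = 0.133). Aldh1a3, which makes retinoic acid, ranged from 4.44 in pancreatic tumor 11 to 11.27 in pancreatic tumor 1, against 3.65 to 4.08 in pituitary tumors, and did not pass the test (difference 3.65, limma adjusted p = 0.121).

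Since Rbp4, Hhex and Sst are also made by cells other than delta cells, the markers of such cells were read in the same tumors. Hepatocyte genes had a mean log2 signal of 14.29 in pancreatic tumor 2, 11.37 in tumor 3 and 11.71 in tumor 4, and 5.70 to 7.29 in the other 6 pancreatic tumors, against 4.74 to 5.63 in pituitary tumors. None of the 10 measured (12 listed) passed the test between the sites (median difference 3.01), and 1 did without pancreatic tumor 1, 2, 5 or 9. Cps1, a urea cycle enzyme of hepatocytes, was 3.72 to 4.29 in 6 pancreatic tumors and 14.06, 10.87 and 11.16 in tumors 2, 3 and 4, against 4.05 to 4.99 in pituitary tumors. Other hepatocyte genes were not confined to tumors 2, 3 and 4. Alb was also 12.28 in tumor 11 and 11.01 in tumor 12, against 5.28 to 7.06 in pituitary tumors. Apob was 6.50 to 13.66 over the pancreatic tumors, against 3.77 to 4.76 in pituitary tumors. In the tumors with the lowest hepatocyte means, 5.70 in tumor 5, 6.04 in tumors 1 and 10 and 6.15 in tumor 9, Rbp4 was 13.19, 13.95, 13.41 and 14.38, which includes the highest Rbp4 signal of the series. Single hepatocyte genes were nevertheless above the pituitary tumors there, although Cps1 was not. Hp, of the same list, was 10.29 in tumor 1 and at most 5.72 in pituitary tumors. Alb was 8.78 in tumor 5, and Apob was 6.55 in tumor 9 and 8.72 in tumor 10. Without pancreatic tumors 2, 3 and 4 the Rbp4 difference was 3.25 (limma adjusted p = 0.000824), the same as with them, that of Hhex 6.78 (adjusted p = 4.50e-05) and that of Sst 3.57 (adjusted p = 0.000268). The tumors kept in that fit still had signals of hepatocyte genes, so it was not a fit without hepatocyte signals. The part of hepatocytes in the Rbp4 and Hhex signals was not tested.

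Adipocytes, the other known source of plasma Rbp4, were read from 5 measured genes (7 listed), none of which passed. Adipoq, which encodes adiponectin, was 8.54 in pancreatic tumor 10, 6.96 in tumor 12 and 3.30 to 3.88 in the other 7, against 3.14 to 3.30 in pituitary tumors. Rbp4 of tumors 10 and 12, at 13.41 and 13.49, lay within the range of the tumors without an Adipoq signal. Endothelial genes, relevant to Hhex, had a mean of 6.42 to 8.37 in pancreatic tumors, against 6.66 to 6.81 in pituitary tumors, with none of 8 past the test, and 2 past it without pancreatic tumor 2. B-cell genes were highest in pancreatic tumor 10, with a mean of 7.28, and 4.59 to 5.50 in the other 8, against 4.47 to 5.09 in pituitary tumors, and none of 4 measured (5 listed) passed. The part of adipocytes in the Rbp4 signal, and of endothelium and B cells in the Hhex signal, was not tested.

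The pancreatic tumors also differed in the hormones of other islet cells. Gcg, which encodes glucagon of alpha cells, was 8.85 in pancreatic tumor 2 and 10.87 to 14.41 in the other 8, against 5.34 to 6.38 in pituitary tumors (difference 6.53, limma adjusted p = 0.00163). Of 3 measured alpha-cell genes (6 listed), 1 was higher, Gcg. Irx2 and Irx1 differed by 1.08 and 0.18 (limma adjusted p = 0.394 and 0.827). Ins2, an insulin gene of beta cells, lay at 8.08 to 12.83 in pancreatic tumors, against 5.48 to 6.25 in pituitary tumors (difference 5.07, limma adjusted p = 0.0131), with adjusted p = 0.0669 and 0.0753 without pituitary tumor 6 or 8. Of 6 measured beta-cell genes (8 listed), 2 were higher, Ins2 and Iapp. G6pc2 and Slc2a2 differed by 2.80 and 1.89 (limma adjusted p = 0.0760 and 0.379). Ppy, which encodes pancreatic polypeptide, was 7.16 in tumor 2, 8.10 in tumor 11 and 11.88 to 14.21 in the other 7 pancreatic tumors, against 5.94 to 7.49 in pituitary tumors (difference 4.99, limma adjusted p = 0.0557, and passed without tumor 2 or 11). In tumor 11, where Ins2 was 8.15 and Ppy 8.10, Sst was 15.08, near the top of its range. The SD over pancreatic tumors was 0.46 for Sst, 0.61 for Hhex and 0.48 for Rbp4, against 1.68 for Gcg, 1.80 for Ins2 and 2.43 for Ppy. A signal at or near the highest of its array, as that of Sst, has little room to vary, however. Iapp, the amylin gene of beta and delta cells, varied less, with an SD of 0.35, but at 13.71 to 14.75 it too lay near the highest signals. It was higher in pancreatic tumors by 2.37 (limma adjusted p = 0.000374). Its 4 probe sets all passed the test, with differences of 2.01 to 4.72. Acinar genes had a mean of 6.11 to 9.89 in 7 pancreatic tumors and of 12.90 and 12.02 in tumors 3 and 4, against 5.37 to 5.85 in pituitary tumors. Of 8 measured acinar genes (10 listed) 1 was higher, Cela1, an elastase (difference 3.91, limma adjusted p = 0.00152).

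In the pituitary tumors, where Sst was 11.93, 10.51 and 11.91, genes of inhibitory neurons and of astrocytes were not at the same level in each tumor. The measured genes of inhibitory and somatostatin neurons had a mean of 7.57, 5.35 and 6.94 in pituitary tumors 6, 7 and 8, against 5.22 to 6.38 in pancreatic tumors. Gad1, the enzyme that makes GABA in the inhibitory neurons to which somatostatin neurons belong, was 2.92 to 3.41 in pancreatic tumors, against 11.32, 3.05 and 12.52 in pituitary tumors 6, 7 and 8. Astrocyte genes had a mean of 5.04 to 6.53 in pancreatic tumors, against 11.42, 7.06 and 11.30 in pituitary tumors 6, 7 and 8, and 5 of 6 were lower in pancreatic tumors (1 without pituitary tumor 6 and 2 without pituitary tumor 8). Sst was lowest in pituitary tumor 7, which had the lowest Gad1 and astrocyte signals of the pituitary tumors. Its Sst signal of 10.51 still lay above the median of its array, 5.53. With pituitary tumor 7 as the only pituitary tumor, the Sst difference was 4.35 (limma adjusted p = 0.000658), that of Hhex 7.23 (adjusted p = 0.000108) and that of Rbp4 2.95 (adjusted p = 0.0122), in a fit that assumes that this tumor varies like the pancreatic ones. The part of neurons in the Sst signal of the pituitary tumors was not tested. Of 9 measured genes of inhibitory and somatostatin neurons, 2 were lower in pancreatic tumors, Gad1 and Nos1, a nitric oxide synthase (median difference -0.15). Without pituitary tumor 6 or 8, and without any 1 of pancreatic tumors 1, 3, 4, 5 and 9 to 12, none passed, with limma adjusted p up to 0.218 for Gad1 and 0.253 for Nos1. Of the same list, Gad2 differed by -2.37 (limma adjusted p = 0.121). Npy had the opposite sign (difference 2.88, limma adjusted p = 0.205). It was 6.71 to 13.62 in pancreatic tumors, against 9.70, 6.30 and 7.13 in pituitary tumors 6, 7 and 8. The glutamate neuron genes gave 1 lower of 5 measured (6 listed), Slc17a6, a vesicular glutamate transporter, and 5 lower without pituitary tumor 7. Anterior pituitary genes were lower in the pancreatic tumors in 9 of 11 measured (13 listed), with means of 4.98 to 5.44 in pancreatic and 9.29, 10.92 and 9.05 in pituitary tumors 6, 7 and 8, so hormone genes of the pituitary were present in each tumor labelled brain.

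**Figure D3:**
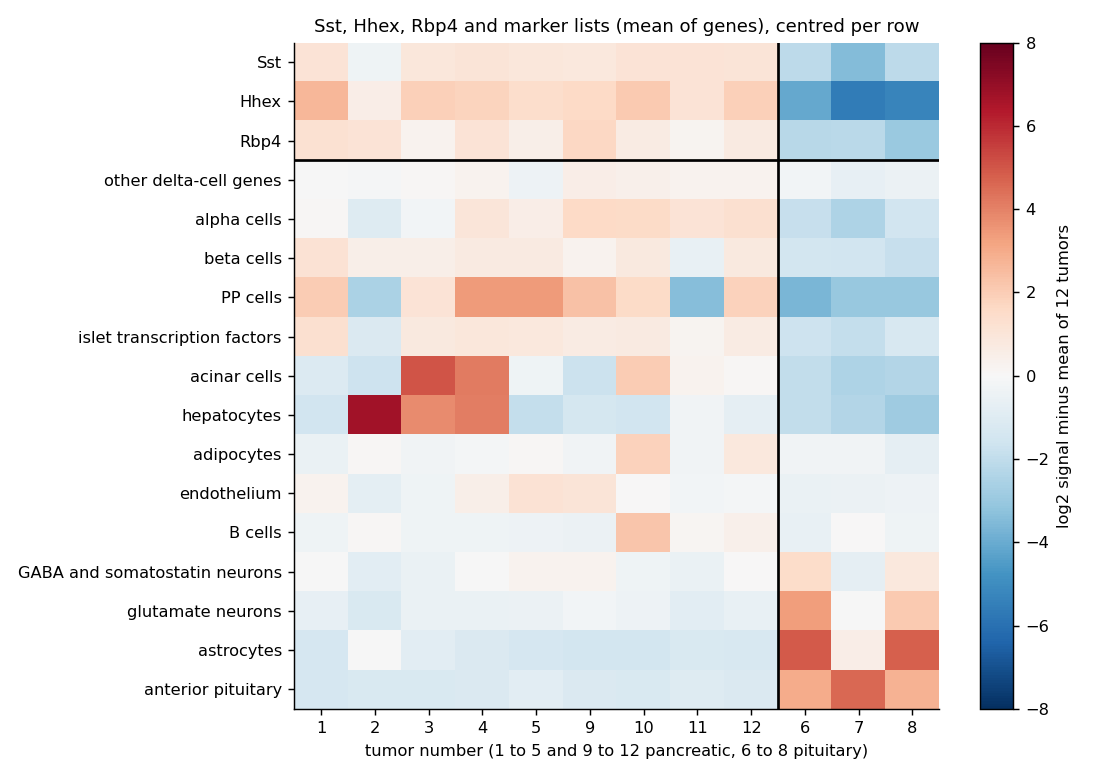
Log2 signal in each tumor, minus the mean over all 12 tumors, for Sst, Hhex and Rbp4 (top) and for the mean of the measured genes of 14 marker lists, with pancreatic tumors left of the vertical line and pituitary tumors right of it. The top rows change at the line, whereas the hepatocyte row stands out in pancreatic tumors 2, 3 and 4 (14.29, 11.37 and 11.71), the acinar row in tumors 3 and 4, and the astrocyte row in pituitary tumors 6 and 8.

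Hhex and Rbp4 lie on the same chromosome, 19, with 6 RefSeq genes between them in the gene order of GRCm38.p6, of which 5 were measured. Of these 1 was higher in pancreatic tumors and none was lower. Exoc6, a subunit of the exocyst that tethers secretory vesicles, lies next to Hhex and was 8.82 to 10.98 in pancreatic and 8.79, 8.35 and 8.32 in pituitary tumors, so the groups were only 0.03 apart. Its difference of 1.69 (SE 0.40, limma adjusted p = 0.0336) passed with 3 of its 4 probe sets, and was lost without any 1 of pancreatic tumors 3, 4, 9, 10 and 12 and pituitary tumors 6, 7 and 8 (limma adjusted p 0.0528 to 0.156). Cyp26a1, a retinoic acid hydroxylase, lay at 5.24 to 9.85 in pancreatic tumors, against 4.73 to 5.15 in pituitary tumors (difference 2.29, limma adjusted p = 0.126). Ffar4, the fatty acid receptor named above, is the nearest measured gene to Rbp4. Myof, a ferlin of membrane repair, differed by 0.72 and Cep55, a protein of cell abscission, by -0.07 (limma adjusted p = 0.205 and 0.963). The differences of Hhex and Rbp4 were thus larger than that of any measured gene between them.

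**Figure D4:**
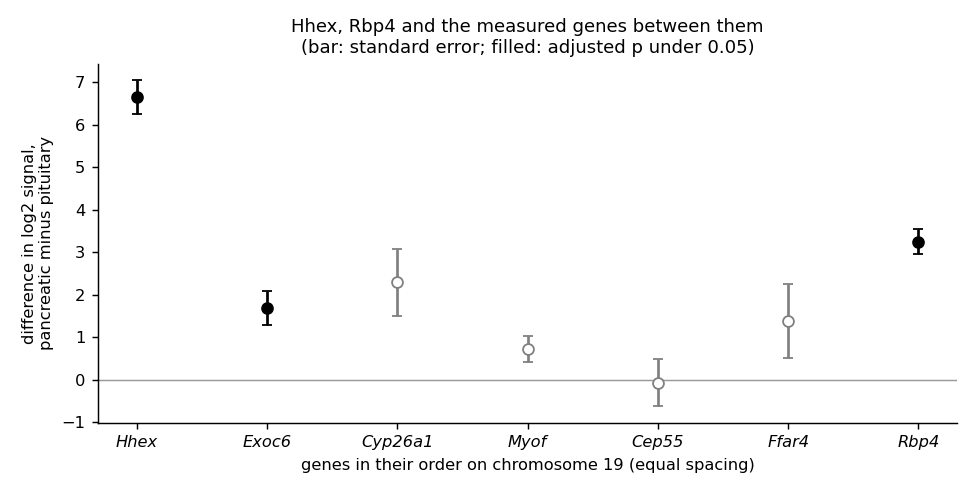
Difference in log2 signal, pancreatic minus pituitary tumors, on the vertical axis for Hhex, Rbp4 and the 5 measured genes between them in their order on chromosome 19, drawn at equal spacing, with bars for the standard error and filled points for an adjusted p under 0.05. Hhex (6.66) and Rbp4 (3.25) stand at the ends, and of the genes between them Exoc6 (1.69) is filled.

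Within the 9 pancreatic tumors the 3 genes did not follow one another beyond what a few tumors set. For Hhex and Sst, Pearson's r was 0.712 (exact permutation p = 0.0297, two-sided, adjusted p = 0.0892 over 3 pairs) and Spearman's rho was 0.483 (exact permutation p = 0.194, adjusted p = 0.581). Without tumors 1 and 2, which lie farthest from the median of Hhex, r was 0.0953 and rho 0.179, so the relation rests on these tumors. Without tumor 11 r was 0.842 (exact permutation, adjusted p = 0.0253), and without tumor 2 alone it was 0.266. The Sst signals of the pancreatic tumors other than tumor 2 spanned only 0.23, so a relation with Sst could hardly appear among them. For Rbp4 and Sst r was -0.233 and rho -0.300 (exact permutation p = 0.598 and 0.437, adjusted p = 0.757 and 0.644), and without tumors 9 and 11 r was -0.263 while rho turned to 0.286. For Rbp4 and Hhex r was 0.123 and rho 0.183 (exact permutation p = 0.757 and 0.644, the same after adjustment), and without tumors 9 and 11 r was 0.00891 and rho 0.107. The labels give no batches within which to repeat these relations.

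**Figure D5:**
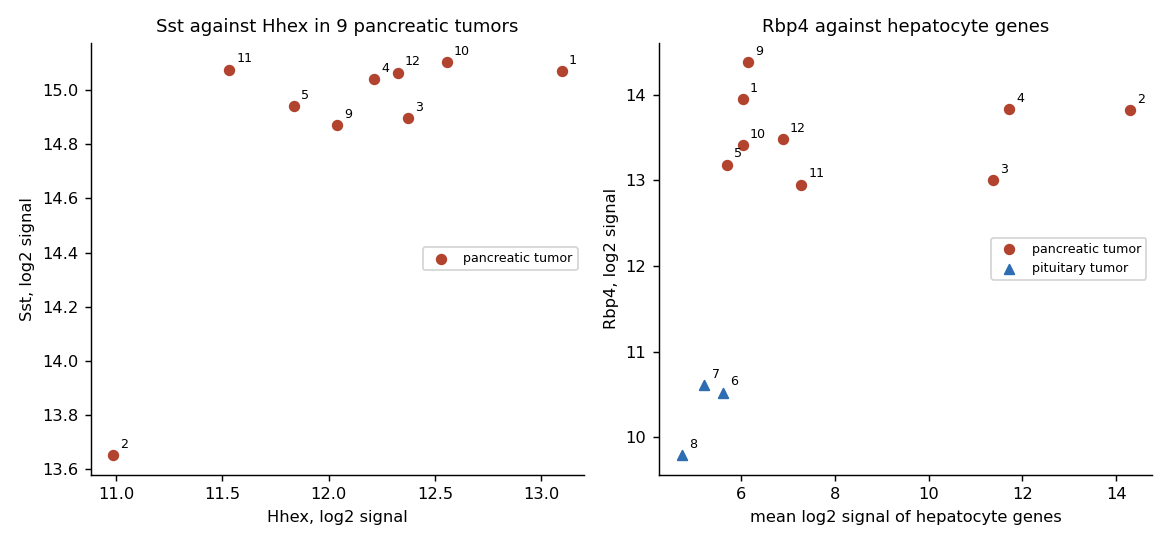
Left, log2 signal of Sst against that of Hhex in the 9 pancreatic tumors, where tumor 2 lies alone at the lower left (10.99 and 13.65). Right, log2 signal of Rbp4 against the mean log2 signal of hepatocyte genes in all 12 tumors, circles pancreatic and triangles pituitary, where pancreatic tumors 1, 5, 9 and 10 have high Rbp4 (13.19 to 14.38) at low hepatocyte means (5.70 to 6.15). Single hepatocyte genes were higher than these means, such as Hp in tumor 1 (10.29).

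The genes whose signals were most like each of the 3 over the 9 pancreatic tumors were found by Pearson's r among 12285 genes with a mean above the median probe set. This is a description over tumors that differ in tissue composition, with hepatocyte means of 5.70 to 14.29 and acinar means of 6.11 to 12.90. How far composition sets these r values was not tested. For Sst these were Sinhcaf, a subunit of the Sin3 corepressor complex (r = 0.990), Tmcc2, a coiled-coil membrane protein (0.990), Tspan5, a tetraspanin (0.989), Nucb2, the nesfatin precursor (0.988), and Cfap36 (0.987), a ciliary protein. All 5 were lowest in tumor 2, as was Sst, and without tumor 2 their r was 0.870, 0.846, 0.704, 0.712 and 0.572. For Hhex they were Arhgef4, a guanine nucleotide exchange factor (0.969), Dgke, a diacylglycerol kinase (0.967), Cpne4, a copine (0.965), Arnt2, a basic helix-loop-helix factor (0.965), and Rai1, a chromatin protein (0.961), and here r stayed between 0.931 and 0.963 without tumor 2. For Rbp4 they were Rnf10, a RING finger protein (0.942), Tmem248, a membrane protein (0.924), Hsp90b1, the HSP90 of the endoplasmic reticulum (0.915), Maea, a ubiquitin ligase subunit (0.911), and Wdr1, an actin-binding protein (0.898). Arhgef4 was the only one of these 15 genes past the test between the sites, and it was lower in pancreatic tumors (difference -2.24, limma adjusted p = 0.0492), a call lost without any 1 of pancreatic tumors 3, 4, 5 and 9 to 12 and pituitary tumors 6 and 8 (limma adjusted p 0.0650 to 0.264). Over all 12 tumors, where r mostly shows the sites, the gene most like Sst was Tmed6 (0.980), that most like Hhex was Cpn1 (0.981) and that most like Rbp4 was Golt1a (0.979), and Hhex was the third in likeness to Sst (0.972).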

How the data were processed

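RNA of 9 pancreatic and 3 pituitary tumors (labelled brain) had been hybridized to Affymetrix mouse arrays. The deposited values are log2 signals. The authors name Partek software for normalization and RMA for pre-processing in R, without saying which of them made these values. They were used without further normalization. Array medians were 5.45 to 5.69 over the pancreatic and 5.53 to 5.61 over the pituitary tumors, and the number of arrays limits the precision. Normal pancreas was not analysed here.

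The table holds 45101 probe sets, of which 64 are controls and were dropped. Of the 45037 tested, 34945 have a unique symbol, 932 have several and 9160 have none in the annotation used, and 34741 were matched to RefSeq through Entrez identifiers with 0 changes of symbol. Where a gene has several probe sets, the one whose group means averaged highest stands for it. Every probe set was fitted in limma 3.58.1 (lmFit, then eBayes, R 4.3.3) with Benjamini-Hochberg adjustment over all of them, and an adjusted p under 0.05 counted as passed. Differences are pancreatic minus pituitary. The fit was tested on simulated data. Promoter stretches, relations and counts were computed in Python 3.11.15 with pandas 2.3.3, numpy 2.4.6 and scipy 1.17.1, and plots were drawn with matplotlib 3.10.9.

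The 19 lists held 164 genes, 141 of them measured. The text names Sst, Hhex, Rbp4, the receptors, Ttr, the genes between Hhex and Rbp4, up to 4 genes of each list by size of difference, Gcg, Ins2, Ppy, and the 5 genes most like each of the 3. Cort, Cpe, Pcsk1, Creb1, Cps1, Tmed6, Cpn1 and Golt1a were named after their values were seen. The 3 genes and the lists were chosen with earlier results of these data known. As alternatives the arrays were quantile normalized, centred on their median or weighted, the prior variance was trended and robust or left out, dim probe sets were removed at the median probe set, the difference in means was permuted exactly, and each tumor was left out in turn. Leaving out pancreatic tumors 2, 3 and 4 or 10, 11 and 12 had been planned for the 3 genes. For the counts it was added after seeing the data, as was leaving out pituitary tumors 6 and 8 for all results.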

Additional observations from a re-analysis of the deposited data

Results flagged for a closer look

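Dixon's test (critical value 0.493) was run on 104 genes, those picked to be named and not all 141 measured list genes. Many were picked by their difference between the sites or their likeness to Sst, Hhex or Rbp4. Chance gives about 5% of genes picked without regard to their values, and the genes are not independent of each other. In 24 genes the highest or lowest of the 9 pancreatic tumors stood apart by this test. Pancreatic tumor 2 was the lowest in 15 of these genes, with log2 signals of 13.65 for Sst, 3.79 for Ghsr, 5.78 for Fxyd6, 9.58 for Chga, 10.69 for Scg2, a granule protein, 5.08 for Sstr3, 8.76 for Isl1, 10.94 for Cpe, 8.32 for Tmed6, a cargo receptor of the secretory pathway, 7.69 for Esam, an endothelial adhesion protein, 7.56 for Sinhcaf, 4.45 for Tmcc2, 6.16 for Tspan5, 7.61 for Nucb2 and 8.91 for Cfap36. The last 5, and Tmed6, had been chosen for their likeness to Sst. Hhex (10.99) and Rbp4 (13.82) of tumor 2 did not stand apart by this test. Tumor 2 was the highest for Slc2a2, the glucose transporter of liver and beta cells (11.46), Slc1a2, a glutamate transporter (7.14), and Aqp4, a water channel (7.61). Its hepatocyte mean was 14.29, the highest of the series.

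Pancreatic tumor 10 was the highest for the B-cell genes Cd79a (7.73), Ms4a1 (8.01) and Cd79b (7.55) and for Fabp4, a fatty acid-binding protein of adipocytes and endothelium (10.81). Pancreatic tumor 11 stood apart for Rbp2, a cellular retinol-binding protein (7.46), and pancreatic tumor 5 for Prl, the prolactin gene (8.22).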

How the results depend on the processing

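The differences of Sst, Hhex and Rbp4 kept their sign and their call under every alternative run, 22 for each gene, with 2.94 to 4.35 for Sst, 6.37 to 7.23 for Hhex and 2.95 to 3.40 for Rbp4. Averaging the probe sets of a gene gave nothing different, since each has 1. Without pituitary tumors 6 and 8 the fit rests on 1 pituitary tumor. No paired analysis was possible because it is not known here which tumors share a mouse. Over the whole array 2085 probe sets passed the test, against 549 without pituitary tumors 6 and 8 and 5028 with array weights, and 828 to 2797 when 1 tumor was left out. Of the 141 measured list genes 9 were higher and 21 lower in pancreatic tumors. The count of higher genes was 21 with array weights, 14 without pancreatic tumors 2, 3 and 4, 3 without pituitary tumors 6 and 8, and 5 to 15 when 1 tumor was left out, the lowest without pituitary tumor 6 and the highest without pancreatic tumor 2. The count of lower genes was 13 without pancreatic tumors 10, 11 and 12 and 10 without pituitary tumors 6 and 8. The correlation of Hhex and Sst in pancreatic tumors was 0.266 to 0.842 when 1 tumor was left out. That of Rbp4 and Hhex was -0.0368 after quantile normalization and -0.0853 to 0.375 when 1 tumor was left out. None of the following reversed differences passed the test in the fit of all tumors, except that of Gad1, and the cause was not tested. Without pituitary tumors 6 and 8 the sign turned for Gad1 (0.11), Rbfox3 (1.25), Sinhcaf (-0.28), Pcsk1 (-0.82), Nucb2 (-0.31) and Hsp90b1 (-0.11). Without pancreatic tumors 10, 11 and 12 it turned for Irx1 (-0.063), Pcsk1 (-0.45), Cep55 (0.29), Tspan5 (-0.034), Rai1 (-0.023) and Tmem248 (0.062), and without tumors 2, 3 and 4 for Cpne4 (0.076), Cpe (0.00018) and Cps1 (-0.60). It turned with array weights for Cep55 (0.19) and Tmem248 (0.035) and with quantile normalization for Tmem248 (0.0044). When 1 tumor was left out the difference ranged from -1.31 to 0.035 for Sstr2, -0.33 to 0.0026 for Sstr5, -0.19 to 0.61 for Irx1, -1.09 to 0.27 for Cd79b, -0.27 to 0.11 for Cep55, -0.90 to 0.46 for Cpne4, -0.090 to 0.17 for Rai1, -0.48 to 0.0013 for Cpe, -0.15 to 0.70 for Pcsk1 and -0.26 to 0.053 for Tmem248.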
